A study of Homo sapiens with 6 samples.

Results

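The extracellular matrix genes of JHH-4 cells moved in both directions when hsa-miR-372-3p was overexpressed. Among the genes that rose were 4 of 8 fibrillar collagen chains, SPARC, TGM2, FN1, the alpha chains of collagen-binding integrins and 3 of 5 lysyl oxidases. LAMA3, ITGB4, ITGA5, ITGB3, COL6A1 and HSPG2 were among those that fell. Of all genes tested, 26.8% rose and 27.7% fell. In either direction 62.5% of the fibrillar collagens and 60% of the lysyl oxidases changed, near the 54.5% of all genes. The set described here holds 75 of the 12396 genes in the count table. Its members are the genes whose symbol begins like that of a collagen chain (COL, a number and A), a laminin chain (LAMA, LAMB or LAMC), an integrin chain (ITGA or ITGB) or a lysyl oxidase (LOX), together with 13 of 15 matrix proteins named singly: SPARC, TGM2, FN1, VCAN, FBN1, FBN2, THBS1, TNC, HSPG2, NID1, FBLN1, AGRN and EFEMP1. POSTN and NID2 were not analysed here. The symbol patterns also took in 4 genes that code for no collagen, laminin or integrin chain (COL4A3BP, ITGB1BP1, ITGB3BP and ITGBL1), which leaves 71 matrix and integrin genes.

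JHH-4 is a human hepatocellular carcinoma line whose cells are labelled epithelial-like. The 2 groups were JHH-4 cells in which a plasmid with the primary microRNA transcript drove overexpression of hsa-miR-372-3p, and JHH-4 control cells labelled wild type. The promoter of the plasmid, the time after its delivery and the treatment of the control cells are not stated in the labels used here. Each group had 3 RNA-seq libraries, and the series calls them technical replicates, so every p-value here measures only the spread between libraries and may not cover the spread between cultures.

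The extracellular matrix is the protein network that cells secrete around themselves. Epithelial cells rest on basement membranes made of type IV collagen, laminins, nidogen and perlecan, while fibrillar collagens, fibronectin and crosslinking enzymes build the stiffer interstitial matrix that accumulates in liver fibrosis. Integrins are receptors of an alpha and a beta chain that bind these proteins outside the cell and link them to actin inside it, and the pairing of chains sets which ligand is bound. A microRNA lowers the level or translation of messenger RNAs whose 3′ UTR pairs with its seed.

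The seed of miR-372-3p is shown because every site search below rests on it. It is shared with miR-373-3p and with the miR-302 family, as the mature sequences from RefSeq (GRCh38.p14) show, with the seed (bases 2 to 8) in capitals.
hsa-miR-372-3p: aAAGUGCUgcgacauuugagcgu
hsa-miR-373-3p: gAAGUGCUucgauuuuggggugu
hsa-miR-302a-3p: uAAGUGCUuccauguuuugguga
hsa-miR-302b-3p: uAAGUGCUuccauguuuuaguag
The mature miR-372-3p lies at chr19:53787931-53787953 on the plus strand, followed downstream by miR-373-3p at chr19:53788748-53788770.

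Few members carried a long match to that seed. Among 74 members searched in GENCODE 29 (GRCh38), in the 3′ UTR of the transcript with the longest coding sequence, 2 held the 8-base match AGCACTTA (2.70%) and 7 more held the 7-base match AGCACTT (9.46%). Of 11860 genes searched over the whole table, 3.51% held the 8-base match and 18.1% the 7-base match as their best. Matches are shown for the members with AGCACTTA, for the member with AGCACTT that rose most and for the one that fell, each with flanking bases and with the match in capitals.
COL4A2 (chr13:110512323-110512330, plus strand): catccagcagcAGCACTTAgacctgccagc
LAMC1 (chr1:183144782-183144789, plus strand): cattttgactgAGCACTTAgggcatcagga
SPARC (chr5:151661650-151661656, minus strand): taagactacagAGCACTTttcaaagctca
LAMA3 (chr18:23954986-23954992, plus strand): atatattttaaAGCACTTtaagaatatga
The COL4A2 match began 132 bases after the stop codon and the LAMC1 match 1992 bases after it. COL4A2 and SPARC rose and LAMC1 and LAMA3 fell, so the members that hold a match moved in both directions. The other 5 members with AGCACTT were COL18A1, COL4A3BP, ITGA2 and ITGB6, which rose, and ITGB8, whose 3′ UTR held 3 copies and which did not pass the test. In all, 6 of the 9 members with either match rose, 2 fell and 1 did not pass. Of all 2566 genes with either match, 26.5% rose and 32.6% fell, and of the 416 with the 8-base match, 20.9% rose and 45.9% fell. Among the 53 members with not even the 6-base match GCACTT, 23 rose (43.4%) and 17 fell (32.1%), against 26.4% and 26.4% of all genes with no match. With the transcript of the longest 3′ UTR in place of the longest coding sequence, 12 of 75 members held either match (16.0%, against 25.5% of all genes), and FBN1 joined COL4A2 and LAMC1 with AGCACTTA. Of those 12 members, 6 rose and 4 fell. A match in a 3′ UTR is a description of the sequence, and binding was not measured.

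Counts assigned to named genes ran from 51072581 to 60070397 in the overexpression libraries and from 46851245 to 47890069 in the control libraries. The 75 members together took 1.36 to 1.39% of these counts with overexpression and 1.24 to 1.25% in control. The groups separated on the first principal component (72.5% of the variance), and on the second (10.2%) control replicate 3, at 22.0, was far from control replicates 1 and 2, at −14.5 and −7.27. Without control replicate 3, 36 members were higher and 24 lower, with ITGAE called and VCAN no longer called. Of the hepatocyte markers, 6 of 15 had a row, and their summed FPKM was 36.9 to 37.8 with overexpression and 35.2 to 37.8 in control, with FGA, FGB and FGG among those higher and FOXA2 and SERPINA1 (log2 fold change −2.35) among those lower; ALB, HNF4A and the other 7 were not analysed here. Epithelial keratin and junction genes summed to 3405 to 3586 FPKM with overexpression and 1849 to 1964 FPKM in control, over 4 of 6 markers: KRT18 (log2 fold change 1.31), KRT8 (0.93) and KRT19 were higher and CLDN1 lower. EPCAM and CDH1 were not analysed here, and the part of these shifts in the results below was not tested.

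Of the 75 members, 36 were higher and 24 lower in overexpressing cells at an edgeR adjusted p under 0.05, so 80% passed, against 54.5% of all 12396 genes tested. In each direction the share was 48.0% higher and 32.0% lower for the members, against 26.8% and 27.7% of all genes. The change reached at least 2-fold in 13 members that rose and 7 that fell (17.3% and 9.33% of members), against 2.82% and 3.20% of all genes, or 26.7% of members against 6.03% of all genes in either direction. The median absolute log2 fold change was 0.53 for the members and 0.22 for all genes, and the median with its sign was 0.14 for the members and 0.00125 for all genes. In 38 members all 3 overexpression libraries lay above all 3 controls and in 24 all lay below, which leaves 13 in which the groups overlapped, while the groups did not overlap in 62.2% of all genes. Without the 4 genes taken in by symbol alone, 35 of 71 rose and 22 fell. The members were chosen with earlier results of these data known. All 13 proteins named singly passed, and 5 of the 13 members that rose at least 2-fold were among them. The shares therefore describe the set and do not test it. The table holds no gene with fewer than 208 counts over the 6 libraries, so members of lower expression could not enter it. COL4A3 (97 counts with overexpression and 193 in control) and LOXL2 (210 and 91) had a group under 104 counts, an even share of that limit. Across roles of 4 to 13 genes, glycoproteins had the largest share of members that passed and integrin beta chains the largest share that fell, with no test between roles. The share that rose was 42.9 to 61.5% except in the integrin beta chains (16.7%) and the symbol matches (25%). The share that fell was 0% in lysyl oxidases, 12.5% in fibrillar collagens and 27.3 to 66.7% in the other roles.

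**Figure D1:**
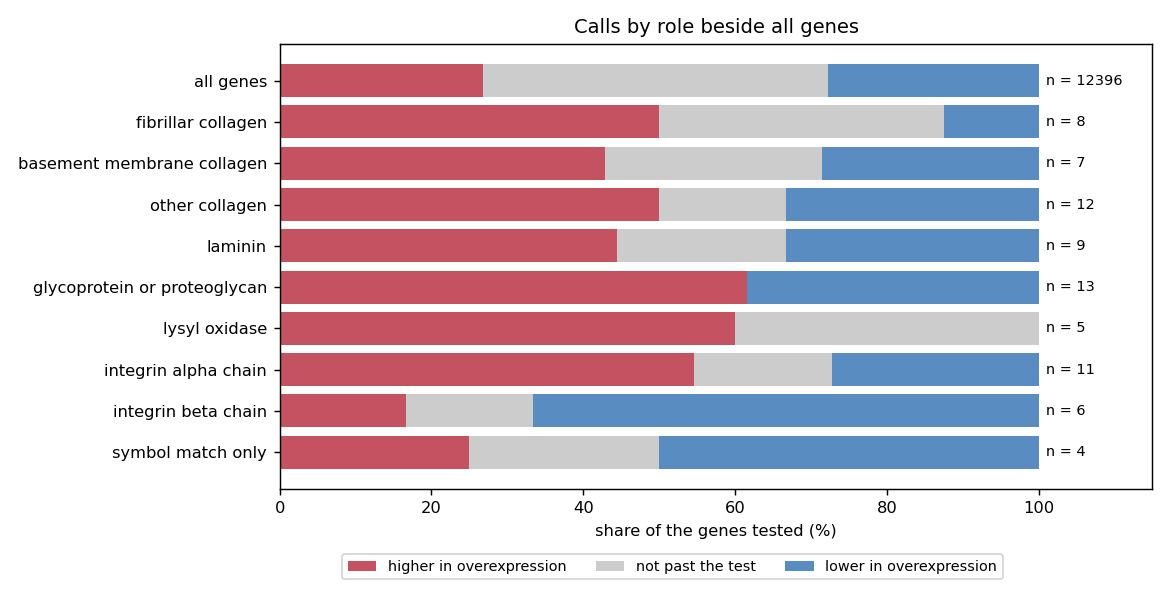
Share of genes (%) that were higher in overexpression, did not pass the test or were lower in overexpression, for all 12396 genes and for each role among the members; n is the number of genes. The glycoproteins have no member without a call (8 higher and 5 lower), no lysyl oxidase was lower, and 4 of 6 integrin beta chains were lower.

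**Figure D2:**
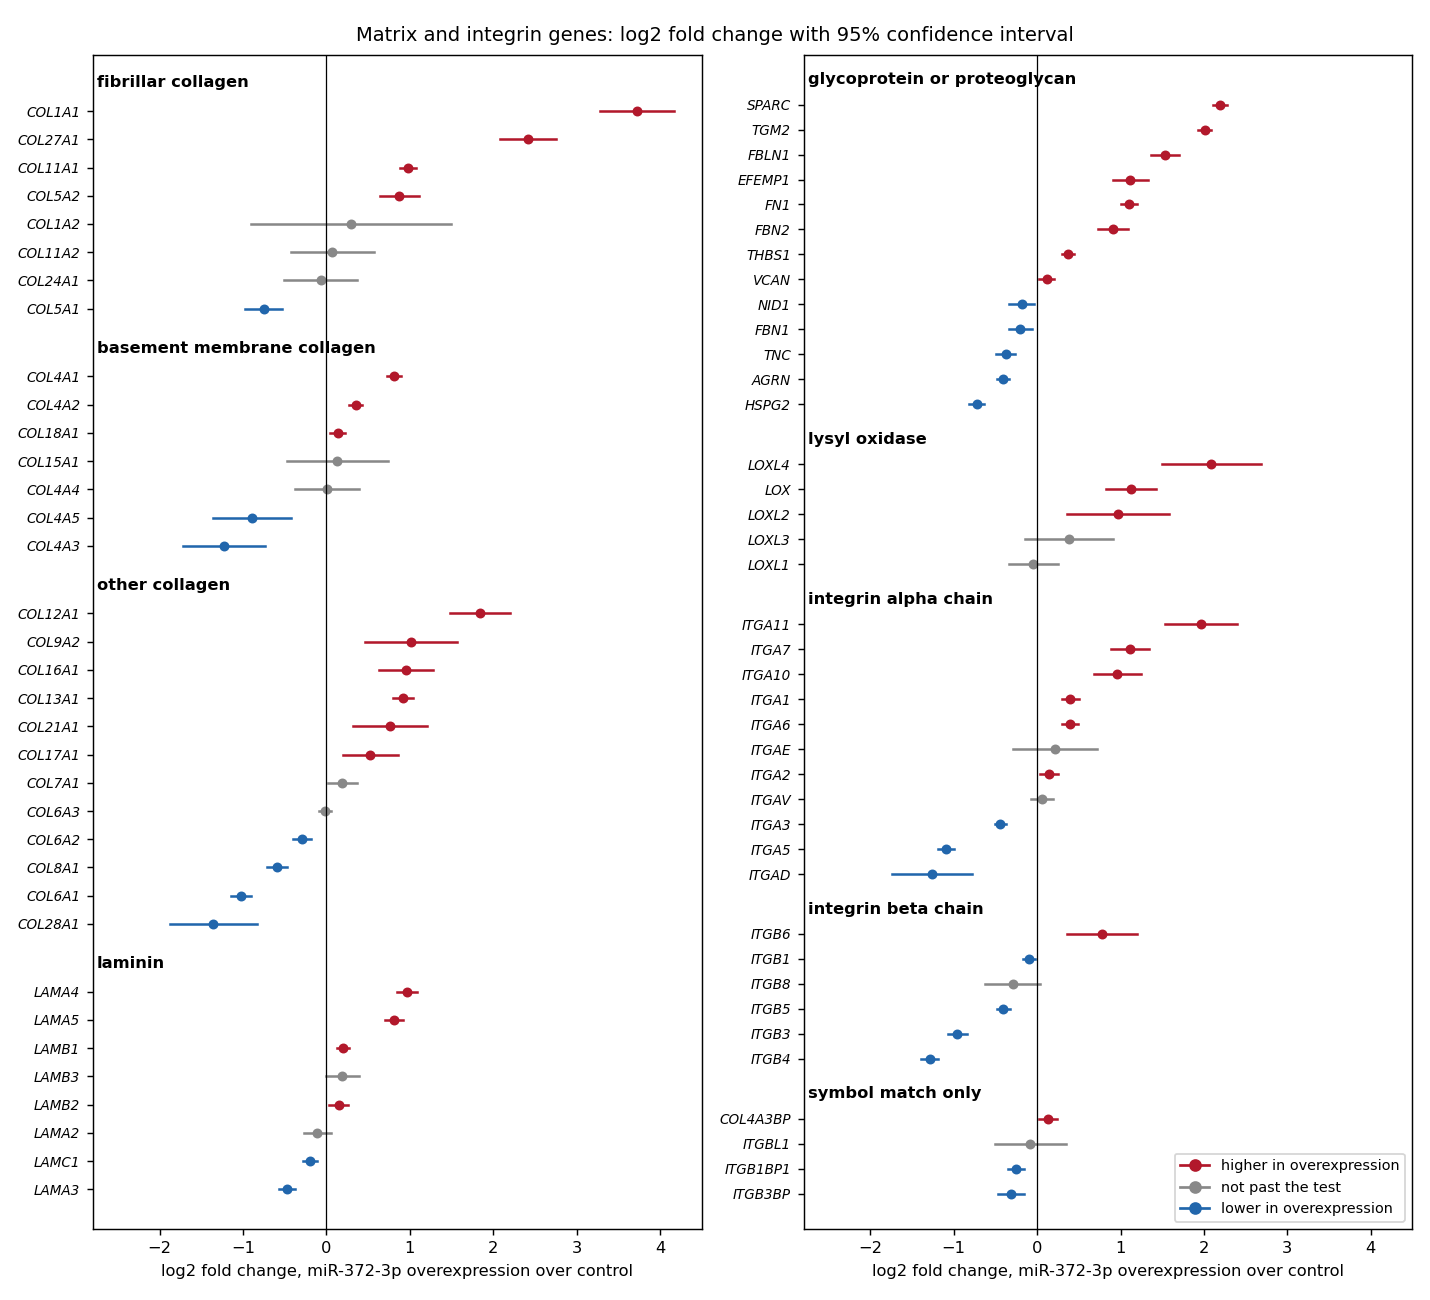
Log2 fold change of 74 members, overexpression over control, with its 95% confidence interval from the edgeR fit, grouped by role (red, higher; blue, lower; grey, not past the test). COL1A1 stands furthest to the right at 3.72 and COL28A1 furthest to the left at −1.36.

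Normalised counts below are counts per 1000000 reads (CPM) of the TMM-scaled library, in the order of replicates 1 to 3, and a log2 fold change is followed by its standard error. RNA came from whole cultures, so fewer cells that express a gene and less RNA per cell cannot be told apart. Among 8 fibrillar collagen chains, whose triple helices form the tensile fibres of connective tissue, 4 rose, 1 fell (12.5%) and 3 did not pass. The share that passed was 62.5%, near the 54.5% of all genes, of which 26.8% were higher and 27.7% lower. COL1A1 (ENSG00000108821, chromosome 17, 50183289 to 50201632, minus strand), the main chain of type I collagen, had 62.5, 68.1 and 61.3 CPM in overexpressing cells, against 7.09, 4.04 and 3.40 CPM in control cells. Every overexpression library lay far above every control, a 13.2-fold rise (3.72 ± 0.197, edgeR adjusted p = 3.63e-07). COL27A1 (ENSG00000196739, chromosome 9, 114155560 to 114312511, plus strand), a fibrillar collagen of cartilage, had 16.9, 18.2 and 19.1 CPM in overexpressing cells, against 4.26, 2.64 and 3.25 CPM in control cells. It rose 5.33-fold (2.41 ± 0.152), again with no overlap. COL11A1 (ENSG00000060718, chromosome 1, 102876467 to 103108872, minus strand), which forms the core of thin heterotypic fibrils, was the fibrillar chain with the highest level and had 371, 380.4 and 377 CPM in overexpressing cells, against 197, 195 and 181 CPM in control cells. Its rise was 1.97-fold (0.98 ± 0.0413), and the lowest overexpression library stood well above the highest control.

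COL5A2 and COL5A1 code for chains that join in type V collagen, which limits fibril diameter, and they went opposite ways. COL5A2 had 10.5, 11.4 and 11.2 CPM in overexpressing cells, against 6.56, 5.41 and 6.12 CPM in control cells and rose (0.87 ± 0.104, adjusted p = 8.15e-05). COL5A1 had 6.64, 7.24 and 6.10 CPM in overexpressing cells, against 11.6, 10.8 and 11.1 CPM in control cells and fell (−0.75 ± 0.0988, adjusted p = 0.000152). In neither gene did the groups overlap. COL1A2, the partner chain of COL1A1 in type I collagen, had 1.70, 1.42 and 1.27 CPM in overexpressing cells, against 2.36, 0.944 and 0.288 CPM in control cells. The controls spanned the overexpression libraries, and no difference passed (0.29 ± 0.534, adjusted p = 0.668). Its value hung on 2 control libraries: leaving out control replicate 1 gave a log2 fold change of 1.25 (adjusted p = 0.0396), and leaving out control replicate 3 gave −0.18. Per gene length, COL1A1 averaged 9.87 ± 0.704 FPKM with overexpression and 0.666 ± 0.309 FPKM in control (SD, n = 3 each), while COL1A2 averaged 0.239 ± 0.0392 and 0.194 ± 0.175 FPKM. COL1A1 thus made up 16.1% ± 0.954 of the summed FPKM of fibrillar collagens with overexpression and 2.41% ± 0.988 in control (SD, n = 3 each), and COL11A1 75.8% ± 0.972 and 86.4% ± 1.86. COL11A2 and COL24A1 did not pass, with log2 fold changes of 0.07 ± 0.222 and −0.07 ± 0.194. The marker genes of fibroblasts, stellate and mural cells, cell types that make fibrillar collagen, had a row in 8 of 13 cases. Of these, 4 were higher (TAGLN at 4.67, CNN1 at 1.56, PDGFRB and PDGFRA) and 2 lower (RGS5 and THY1). That is 50% and 25%, against 26.8% and 27.7% of all genes. LUM and LRAT did not pass, although LRAT had every overexpression library above every control (edgeR adjusted p = 0.052). The summed FPKM of the 8 was 90.1 to 93.5 with overexpression and 81.0 to 90.1 in control. LUM was at 2.36 to 3.04 CPM with overexpression and 2.45 to 3.19 CPM in control. DCN, DPT, DES, ACTA2 and MYH11 were not analysed here. The part of these genes in the collagen values was not tested.

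**Figure D3:**
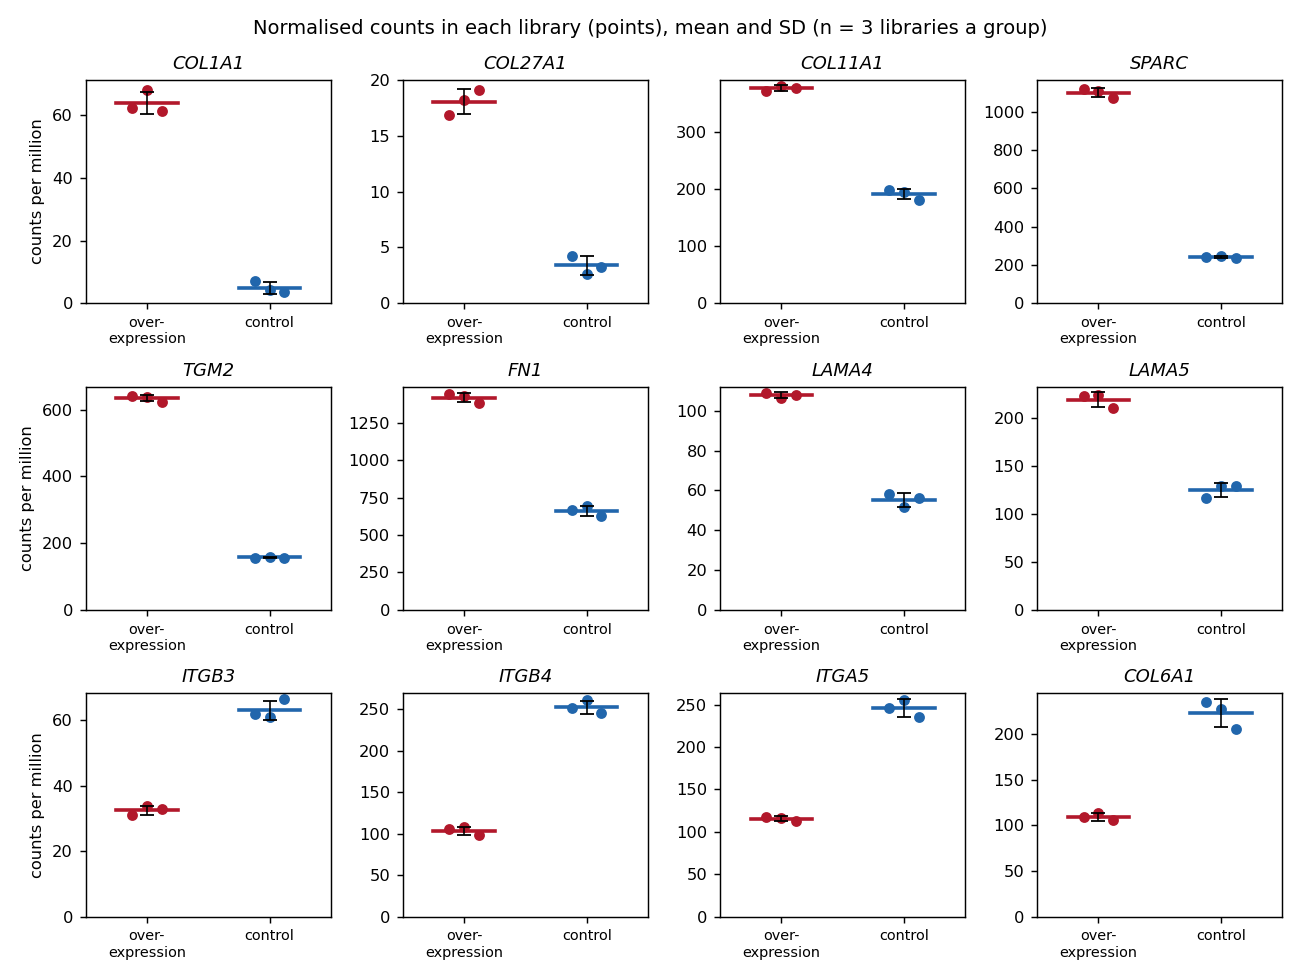
CPM of 12 members in each library (points), with the mean (line) and SD (bar) of 3 libraries a group, overexpression left of control in each panel. In every panel the 3 overexpression libraries lie on 1 side of the 3 controls, above them in the first 8 genes and below them in ITGB3, ITGB4, ITGA5 and COL6A1. Only members whose groups did not overlap are drawn, so the separation is no result about the set. The groups overlapped in 13 of 75 members, and they did not overlap in 62.2% of all genes.

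Basement membrane collagens form sheets under epithelia rather than fibres. Of 7 measured, COL4A1, COL4A2 and COL18A1 rose, COL4A5 and COL4A3 fell, and COL15A1 and COL4A4 did not pass. That is 42.9% higher and 28.6% lower, against 26.8% and 27.7% of all genes. COL4A1 (ENSG00000187498, chromosome 13, 110148963 to 110307233, minus strand), a chain of the type IV collagen found in all basement membranes, had 196, 191 and 189 CPM in overexpressing cells, against 113, 110.3 and 107 CPM in control cells. COL4A2 (ENSG00000134871, chromosome 13, 110305812 to 110513209, plus strand), its partner in the same triple helix and the member with the AGCACTTA match shown above, had 306, 305 and 297 CPM in overexpressing cells, against 238, 241 and 233 CPM in control cells. Both genes had every overexpression library above every control, with log2 fold changes of 0.80 ± 0.0376 and 0.35 ± 0.0338 (adjusted p = 1.76e-07 and 2.01e-05). The 95% confidence intervals, 0.72 to 0.89 for COL4A1 and 0.27 to 0.42 for COL4A2, did not overlap. COL4A1 was accordingly 37.6% ± 0.238 of the summed FPKM of type IV chains with overexpression and 30.7% ± 0.565 in control (SD, n = 3 each).

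These neighbouring genes are read in opposite directions from RefSeq starts 127 bases apart. Their promoter windows (250 bases before to 50 after the start, RefSeq GRCh38.p14) share 226 bases, at chr13:110307108-110307333. The GENCODE ranges given above differ from this and overlap, from 110305812 to 110307233. The window of COL4A2, at chr13:110307034-110307333 on the plus strand, is shown because the pair that rose together starts within it, with a CCAAT box (CCAAT) and a GC box (GGGCGG) in capitals.
COL4A2 promoter window: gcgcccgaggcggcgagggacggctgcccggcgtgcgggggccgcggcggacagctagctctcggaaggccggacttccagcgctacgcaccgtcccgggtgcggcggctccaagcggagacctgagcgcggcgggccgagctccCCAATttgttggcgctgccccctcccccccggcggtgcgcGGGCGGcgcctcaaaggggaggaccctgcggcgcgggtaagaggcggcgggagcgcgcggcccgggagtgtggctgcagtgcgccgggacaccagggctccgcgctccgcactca
Windows were in the RefSeq table for 59 members. CCAAT, sought on both strands, lay in 23.7% of the member windows and in 35.7% of all 27305 windows, GGGCGG in 64.4% and 44.6%, and CATTCC, the core motif of TEAD factors, in 15.3% and 14.0%. The 27305 windows take in genes that had no row in the count table, so the shares do not compare like with like. The COL4A1 window held the same CCAAT and GGGCGG on its minus strand and 1 further GGGCGG.

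COL18A1 (ENSG00000182871, chromosome 21, 45405137 to 45513720, plus strand), the source of endostatin and the basement membrane collagen with the highest level, had 521, 508 and 513 CPM in overexpressing cells, against 469.7, 446 and 491 CPM in control cells. The groups did not overlap, but the rise was small (0.13 ± 0.0404, adjusted p = 0.019) and did not pass in 3 of 6 fits that each left out 1 library. Of its exon bases, 16.4% overlap SLC19A1 on the other strand, and the library kit does not mark strand, so its count is uncertain. COL4A3 and COL4A5 code for type IV chains of the kidney and lung basement membrane, and both were near the lower limit of the table. COL4A3 had 0.667, 0.534 and 0.535 CPM in overexpressing cells, against 1.41, 1.31 and 1.36 CPM in control cells. COL4A5 had 0.801, 0.752 and 0.696 CPM in overexpressing cells, against 1.32, 1.55 and 1.32 CPM in control cells. All overexpression libraries lay below all controls, with log2 fold changes of −1.22 ± 0.219 and −0.89 ± 0.209. COL4A4, which shares its promoter region with COL4A3, had 3.57, 3.70 and 3.59 CPM in overexpressing cells, against 4.43, 3.05 and 3.30 CPM in control cells, with overlapping groups (0.01 ± 0.172).

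The other 12 collagens, which decorate fibrils, form networks or span the membrane, had 6 that rose, 4 that fell (33.3%) and 2 that did not pass. The share that passed was 83.3%, against 54.5% of all genes, of which 26.8% were higher and 27.7% lower. COL12A1, which binds to the surface of collagen fibrils, had 6.47, 5.48 and 5.55 CPM in overexpressing cells, against 1.81, 1.42 and 1.65 CPM in control cells. COL16A1, of the same class, had 5.40, 6.17 and 6.03 CPM in overexpressing cells, against 2.68, 3.33 and 3.07 CPM in control cells. COL9A2, a chain of a cartilage collagen, had 1.52, 1.60 and 1.82 CPM in overexpressing cells, against 0.660, 0.687 and 1.09 CPM in control cells. In these 3 genes the overexpression libraries were all above the controls, with log2 fold changes of 1.84 ± 0.161, 0.95 ± 0.143 and 1.01 ± 0.247 (adjusted p = 1e-05, 0.000349 and 0.00617). The transmembrane collagens COL13A1 (0.92 ± 0.0538) and COL17A1 (0.53 ± 0.149) and the fibril-associated COL21A1 (0.76 ± 0.196) rose as well. COL6A1 (ENSG00000142156, chromosome 21, 45981737 to 46005050, plus strand), a chain of the beaded filaments of type VI collagen, had 109, 113 and 105 CPM in overexpressing cells, against 235, 228 and 206 CPM in control cells. It fell 2.04-fold with no overlap (−1.03 ± 0.0538, adjusted p = 3.44e-07). Its partner chain COL6A2 fell less (−0.29 ± 0.0491), and COL6A3, with 317, 321 and 311 CPM in overexpressing cells, against 321, 319 and 323 CPM in control cells, did not pass (−0.02 ± 0.0323, 95% confidence interval −0.09 to 0.05). Within type VI collagen, COL6A1 was 36.5% ± 1.92 of the summed FPKM with overexpression and 52.7% ± 1.68 in control (SD, n = 3 each). COL8A1, of the short-chain collagens, fell (−0.59 ± 0.0520). COL28A1 had 1.00, 0.871 and 0.946 CPM in overexpressing cells, against 2.07, 3.16 and 2.02 CPM in control cells and fell (−1.36 ± 0.233), at a level under 4 CPM in every library. COL7A1, the anchoring fibril collagen, did not pass over all libraries (0.19 ± 0.0784, adjusted p = 0.0635), and without overexpression replicate 3 it did (adjusted p = 0.0483).

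Laminins are heterotrimers of an alpha, a beta and a gamma chain that start basement membrane assembly. Among the chains described here, LAMA4, LAMA5, LAMB1 and LAMB2 rose, LAMC1 and LAMA3 fell, and LAMB3 and LAMA2 did not pass. LAMA3 (ENSG00000053747, chromosome 18, 23689443 to 23956222, plus strand), an alpha chain of the laminin under stratified epithelia, had 38.2, 36.4 and 37.7 CPM in overexpressing cells, against 52.9, 51.9 and 50.9 CPM in control cells and fell with no overlap (−0.47 ± 0.0439, adjusted p = 1.52e-05). LAMB3, the beta chain of that laminin, had 12.2, 14.4 and 12.9 CPM in overexpressing cells, against 12.2, 11.4 and 11.04 CPM in control cells. The overexpression libraries of LAMB3 were all above the controls by a small margin, and the difference did not pass (0.19 ± 0.0894, adjusted p = 0.0997).

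LAMA4 (ENSG00000112769, chromosome 6, 112108760 to 112254939, minus strand), an alpha chain of vascular and mesenchymal laminins, had 109, 106 and 108 CPM in overexpressing cells, against 58.0, 51.5 and 56.1 CPM in control cells. LAMA5 (ENSG00000130702, chromosome 20, 62307955 to 62367312, minus strand), the broad alpha chain of adult basement membranes, had 223, 224 and 209.9 CPM in overexpressing cells, against 117, 129.5 and 129 CPM in control cells. Both rose with no overlap, 1.95-fold (0.97 ± 0.0517) and 1.75-fold (0.81 ± 0.0496). LAMB1 (ENSG00000091136, chromosome 7, 107923799 to 108003255, minus strand), the laminin chain with the highest level, had 558, 559 and 540.4 CPM in overexpressing cells, against 486, 485 and 474 CPM in control cells and rose slightly (0.20 ± 0.0331). LAMC1 (ENSG00000135862, chromosome 1, 183023460 to 183145592, plus strand), the common gamma chain and the other member with AGCACTTA, had 255, 247 and 244 CPM in overexpressing cells, against 293, 291 and 274 CPM in control cells and fell slightly (−0.20 ± 0.0391, adjusted p = 0.00185). In both genes the groups stood apart without overlap. LAMB2 (0.15 ± 0.0516) passed over all libraries but not in 4 of the 6 fits that each left out 1 library.

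The alpha chains differed between the groups in their shares of the summed FPKM. LAMA3 was 8.78% ± 0.143 of the summed FPKM of the 4 alpha chains with overexpression and 18.6% ± 0.461 in control, while LAMA4 was 41.6% ± 0.844 and 33.4% ± 1.82, and LAMA5 45.1% ± 1.15 and 40.3% ± 1.63. LAMB1, LAMB2 and LAMB3 kept overlapping shares of the beta chains, LAMB1 at 85.0% ± 0.287 and 84.6% ± 0.559 (SD, n = 3 each throughout). With 3 libraries against 3, an exact two-sided permutation test of a share cannot go below p = 0.10, so shares are given as values.

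**Figure D4:**
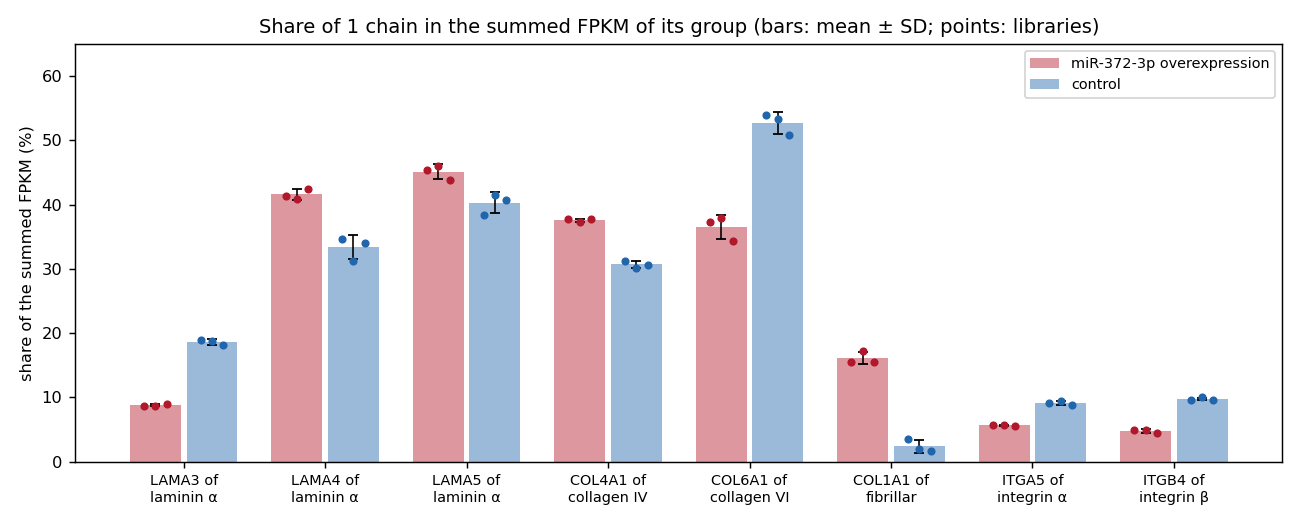
Share (%) of 1 chain in the summed FPKM of its group of chains, in overexpression (red, left) and control (blue, right); bars are means, whiskers SD and points the 3 libraries. LAMA3, COL6A1, ITGA5 and ITGB4 take a smaller share with overexpression, and LAMA4, LAMA5, COL4A1 and COL1A1 a larger one, with no overlap of libraries.

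The 13 matrix proteins named singly, grouped here as glycoproteins and proteoglycans although TGM2 is an enzyme, all passed the test. Of these, 8 were higher (61.5%) and 5 lower (38.5%), against 26.8% and 27.7% of all genes, of which 54.5% passed. They were chosen with earlier results of these data known. SPARC (ENSG00000113140, chromosome 5, 151661096 to 151687165, minus strand), a collagen-binding matricellular protein and the member with the AGCACTT match shown above, had 1118, 1106 and 1073 CPM in overexpressing cells, against 240.3, 246 and 234 CPM in control cells. It rose 4.58-fold (2.196 ± 0.0368, adjusted p = 4.93e-10), with every overexpression library far above every control. Of its exon bases, 7.89% overlap the antisense transcript CLMAT3, whose reads cannot be told apart without strand. TGM2 (ENSG00000198959, chromosome 20, 38127387 to 38166578, minus strand), a transglutaminase that crosslinks matrix proteins, had 642, 639 and 623 CPM in overexpressing cells, against 156, 160 and 157 CPM in control cells. FN1 (ENSG00000115414, chromosome 2, 215360440 to 215436172, minus strand), coding for fibronectin, had 1441, 1430 and 1381 CPM in overexpressing cells, against 664, 690.2 and 624 CPM in control cells. The fold rises were 4.02 for TGM2 (2.01 ± 0.0340, adjusted p = 4.93e-10) and 2.15 for FN1 (1.10 ± 0.0426, adjusted p = 5.48e-08), each with the groups far apart. FBLN1 and EFEMP1 code for fibulins, which sit on elastic fibres and basement membranes. FBLN1 had 30.2, 30.1 and 28.96 CPM in overexpressing cells, against 9.50, 10.3 and 11.1 CPM in control cells. EFEMP1 had 25.2, 22.8 and 24.04 CPM in overexpressing cells, against 12.7, 10.4 and 10.0 CPM in control cells. Both rose without overlap (1.53 ± 0.0738 and 1.12 ± 0.0955).

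FBN2 (0.92 ± 0.0801), a fibrillin of developing microfibrils, and THBS1 (0.37 ± 0.0329), which binds many matrix proteins and activates latent TGF-beta, also rose. Of the exon bases of THBS1, 4.89% overlap FSIP1 and 4.49% AC037198.2, both on the other strand. VCAN, a large chondroitin sulphate proteoglycan, rose by a small amount (0.11 ± 0.0404, adjusted p = 0.0352) that did not pass in 5 of the 6 fits that each left out 1 library. Of proteins that link the basement membrane, HSPG2 (−0.73 ± 0.0424), coding for perlecan, AGRN (−0.41 ± 0.0333), coding for agrin, and NID1 (−0.18 ± 0.0680), coding for a nidogen that joins laminin to type IV collagen, fell. HSPG2 had 305, 303 and 285 CPM in overexpressing cells, against 493, 511 and 474 CPM in control cells. AGRN had 721, 698 and 696 CPM in overexpressing cells, against 931, 922 and 953 CPM in control cells. In both the overexpression libraries were all lower than the controls, and 11.7% of the exon bases of HSPG2 overlap LDLRAD2 on the other strand. NID1 had 30.1, 31.2 and 29.6 CPM in overexpressing cells, against 36.8, 35.5 and 31.0 CPM in control cells, the only called member whose groups overlapped, and it did not pass in 5 of the 6 fits that each left out 1 library. TNC (−0.38 ± 0.0495), a glycoprotein of remodelling tissue, fell. FBN1, a fibrillin, had 19.8, 21.1 and 19.9 CPM in overexpressing cells, against 23.0, 23.6 and 23.3 CPM in control cells and fell by a small amount (−0.20 ± 0.0603, adjusted p = 0.0173). Its groups did not overlap, and it did not pass in 2 of the 6 fits that each left out 1 library.

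Lysyl oxidases oxidise lysines in collagen and elastin so that the fibres crosslink. Of 5 measured, 3 rose (60.0%) and 0 fell, against 26.8% and 27.7% of all genes, of which 54.5% passed. LOXL4 had 2.62, 3.52 and 3.44 CPM in overexpressing cells, against 0.958, 0.816 and 0.474 CPM in control cells. LOX (ENSG00000113083, chromosome 5, 122063195 to 122078360, minus strand) had 13.8, 10.8 and 13.03 CPM in overexpressing cells, against 6.03, 6.44 and 4.82 CPM in control cells. LOXL2 had 1.27, 1.23 and 1.29 CPM in overexpressing cells, against 0.916, 0.494 and 0.515 CPM in control cells. In each gene all overexpression libraries were above all controls, with log2 fold changes of 2.09 ± 0.266, 1.12 ± 0.135 and 0.97 ± 0.274 (adjusted p = 0.000121, 8.25e-05 and 0.013), although LOXL4 and LOXL2 rested on fewer than 50 counts in every control library. LOXL1, the family member with the highest level per gene length, had 8.74, 8.03 and 6.67 CPM in overexpressing cells, against 7.33, 8.99 and 7.87 CPM in control cells, with overlapping groups (−0.04 ± 0.129). LOXL3 did not pass (0.38 ± 0.234). Of the exon bases of LOXL1, 9.21% overlap LOXL1-AS1, and of those of LOXL3, 14.3% overlap HTRA2 and 4.95% DOK1. All lie on the other strand, so both counts are uncertain. Summed FPKM of the family was 6.98 ± 0.549 with overexpression and 4.80 ± 0.265 in control (SD, n = 3 each).

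Of 11 integrin alpha chains, 6 rose (54.5%), 3 fell (27.3%) and 2 did not pass, against 26.8% and 27.7% of all genes. The alpha chains that bind collagen with the ITGB1 chain are ITGA1, ITGA2, ITGA10 and ITGA11, a grouping from general knowledge made after their values were seen, and all 4 were higher. ITGA11 (ENSG00000137809, chromosome 15, 68296533 to 68432162, minus strand), the collagen receptor of mesenchymal cells, had 6.29, 5.92 and 6.67 CPM in overexpressing cells, against 1.79, 1.89 and 1.15 CPM in control cells. ITGA10 (ENSG00000143127, chromosome 1, 145891208 to 145910189, minus strand), the collagen receptor of cartilage, had 8.62, 7.97 and 10.0 CPM in overexpressing cells, against 4.24, 4.49 and 4.92 CPM in control cells. Both had no overlap between groups and rose 3.91-fold (1.97 ± 0.193, adjusted p = 2.24e-05) and 1.95-fold (0.96 ± 0.126, adjusted p = 0.000144). ITGA1 rose by 0.40 ± 0.0458 on the log2 scale, and ITGA2 by 0.14 ± 0.0476 (adjusted p = 0.0287), which did not pass in 4 of the 6 fits that each left out 1 library. ITGA7 (ENSG00000135424, chromosome 12, 55684568 to 55716043, minus strand), a laminin receptor of muscle, had 30.6, 31.8 and 31.9 CPM in overexpressing cells, against 15.6, 11.9 and 16.0 CPM in control cells. Its groups did not overlap, and it rose 2.16-fold (1.11 ± 0.102). ITGA6, another laminin-binding chain, rose less (0.39 ± 0.0432).

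ITGA5 (ENSG00000161638, chromosome 12, 54395261 to 54419460, minus strand), the alpha chain of the classical fibronectin receptor, had 117, 117 and 112 CPM in overexpressing cells, against 246, 256 and 235 CPM in control cells. It fell 2.13-fold (−1.09 ± 0.0422, adjusted p = 5.52e-08) with every overexpression library below every control, while its ligand gene FN1 rose 2.15-fold in the same libraries. ITGA3 (ENSG00000005884, chromosome 17, 50055968 to 50090481, plus strand), a laminin-binding chain and the member with the highest level, had 1791, 1794 and 1734 CPM in overexpressing cells, against 2401, 2430 and 2381 CPM in control cells. It fell 1.36-fold (−0.44 ± 0.0315), also without overlap. ITGAD, an integrin chain of leukocytes, had 0.734, 0.910 and 0.910 CPM in overexpressing cells, against 2.13, 1.67 and 2.31 CPM in control cells and fell (−1.26 ± 0.216), on counts of 44, 46 and 51 with overexpression and 100, 78 and 112 in control. Among blood markers 2 of 8 had a row and neither passed: CD68, at 127 to 132 CPM with overexpression and 118 to 139 CPM in control, and CD14, at 0.714 to 1.39 and 1.06 to 1.61 CPM. ITGAV, the alpha chain of several receptors for vitronectin and latent TGF-beta, did not pass (0.06 ± 0.0601, 95% confidence interval −0.08 to 0.19). ITGAE had 6.19, 5.70 and 6.50 CPM in overexpressing cells, against 3.96, 4.25 and 7.60 CPM in control cells, and control replicate 3 stood apart. Over all libraries it did not pass (0.22 ± 0.226), and without control replicate 3 it did, with a log2 fold change of 0.58 (adjusted p = 0.00571). Of its exon bases, 6.41% overlap HASPIN on the other strand.

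Of 6 integrin beta chains, ITGB6 rose, ITGB1, ITGB5, ITGB3 and ITGB4 fell (66.7%, against 27.7% of all genes), and ITGB8 did not pass. The difference from the alpha chains was not tested. ITGB4 (ENSG00000132470, chromosome 17, 75721328 to 75757818, plus strand), which pairs with ITGA6 in hemidesmosomes and binds the laminin of LAMA3 and LAMB3, had 105, 108 and 98.0 CPM in overexpressing cells, against 251, 261 and 245 CPM in control cells. It fell 2.44-fold (−1.28 ± 0.0456, adjusted p = 3.37e-08), and the highest overexpression library lay far under the lowest control. ITGB3 (ENSG00000259207, chromosome 17, 47253846 to 47311816, plus strand), a beta chain of vitronectin receptors, had 31.0, 33.7 and 32.9 CPM in overexpressing cells, against 61.7, 60.9 and 66.4 CPM in control cells. ITGB5 (ENSG00000082781, chromosome 3, 124761948 to 124901418, minus strand), another partner of ITGAV, had 215, 218 and 222 CPM in overexpressing cells, against 292, 286 and 288 CPM in control cells. Both fell without overlap (−0.95 ± 0.0534 and −0.40 ± 0.0332, adjusted p = 5.1e-07 and 6.71e-06), and 51.6% of the exon bases of ITGB3 are shared with the read-through gene AC068234.1, so its count is uncertain. ITGB1 (ENSG00000150093, chromosome 10, 32900319 to 33005792, minus strand), the beta chain shared by most matrix receptors, had 1100, 1083 and 1097 CPM in overexpressing cells, against 1186, 1175 and 1152 CPM in control cells. The fall was 1.07-fold (−0.10 ± 0.0312, adjusted p = 0.0219), the libraries did not overlap, and it did not pass in 4 of the 6 fits that each left out 1 library. ITGB6, an epithelial chain that binds latent TGF-beta, had 2.34, 2.73 and 2.77 CPM in overexpressing cells, against 1.73, 1.502 and 1.34 CPM in control cells and rose (0.78 ± 0.186, adjusted p = 0.00558) at a level under 3 CPM, with 20.6% of its exon bases shared with AC092153.1. ITGB8 had a log2 fold change of −0.29 ± 0.148 (adjusted p = 0.119).

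Summed FPKM of the alpha chains was 409 ± 7.78 with overexpression and 536 ± 2.85 in control, and of the beta chains 345 ± 5.84 and 408 ± 2.99 (SD, n = 3 each). Most of the alpha sum was ITGA3, at 81.3% ± 0.495 with overexpression and 82.9% ± 0.141 in control, and most of the beta sum was ITGB1, at 79.7% ± 0.307 and 72.0% ± 0.263. ITGA5 was 5.65% ± 0.0636 of the alpha chains with overexpression and 9.16% ± 0.321 in control, and ITGB4 was 4.79% ± 0.268 of the beta chains and 9.76% ± 0.213. The ITGA6 chain, the partner of ITGB4, was 4.02% ± 0.0307 of the alpha chains with overexpression and 2.33% ± 0.114 in control. So the 2 chains of the hemidesmosome receptor moved opposite ways in share as in level.

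Ranked by FPKM, which corrects for gene length, the members ranged widely. In 7 members the mean reached 100 FPKM in at least 1 group. With overexpression the order among these was ITGA3 (333 ± 7.21), ITGB1 (275 ± 5.66), SPARC (265 ± 7.21), FN1 (155 ± 4.39), THBS1 (144 ± 4.77), TGM2 (112 ± 2.39) and AGRN (85.8 ± 2.51). In control it was ITGA3 (445 ± 1.66), ITGB1 (294 ± 2.99), AGRN (114 ± 3.35), THBS1 (110.2 ± 2.51), FN1 (70.6 ± 2.42), SPARC (57.6 ± 0.785) and TGM2 (27.6 ± 0.234), all in FPKM as mean ± SD of 3 libraries. Among the 7, SPARC stood 3 places higher with overexpression than in control and AGRN 4 places lower. The SD ranges of neighbours overlapped for ITGB1 and SPARC with overexpression and for AGRN and THBS1 in control. Another 21 members were under 1 FPKM in both groups. By role, the glycoproteins summed to 879 ± 22.7 FPKM with overexpression and 494 ± 3.15 in control, the fibrillar collagens to 61.4 ± 0.758 and 27.3 ± 1.41, the basement membrane collagens to 160 ± 1.90 and 136 ± 5.26, and the other collagens to 89.6 ± 3.46 and 107 ± 2.36 (SD, n = 3 each).

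The 4 genes taken in by symbol alone code for a ceramide transporter (COL4A3BP), a regulator of integrin signalling (ITGB1BP1), a kinetochore protein (ITGB3BP) and an integrin beta-like secreted protein (ITGBL1). ITGB3BP had 23.2, 23.5 and 25.6 CPM in overexpressing cells, against 31.5, 30.6 and 27.7 CPM in control cells and fell (−0.31 ± 0.0686). ITGB1BP1 had 97.6, 96.3 and 102 CPM in overexpressing cells, against 120.2, 114 and 118 CPM in control cells and fell (−0.25 ± 0.0410), with 33.1% of its exon bases overlapped by ASAP2 on the other strand. Neither gene had overlapping groups. COL4A3BP had 76.0, 72.6 and 77.3 CPM in overexpressing cells, against 65.4, 69.8 and 71.1 CPM in control cells and a small rise (0.13 ± 0.0492, adjusted p = 0.0459), which did not pass in 3 of the 6 fits that each left out 1 library. ITGBL1 did not pass (−0.08 ± 0.189), and 70.5% of its exon bases overlap FGF14.

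Of the genes that fold and process collagen, 29 of 30 listed were measured. Of these 7 rose (24.1%, against 26.8% of all genes) and 14 fell (48.3%, against 27.7% of all genes), with a median log2 fold change of −0.14, against 0.00125 over all genes. ADAMTS14, a procollagen peptidase, had 8.22, 9.14 and 8.83 CPM in overexpressing cells, against 3.79, 4.23 and 4.66 CPM in control cells. TLL1, another procollagen peptidase, had 2.35, 1.78 and 2.87 CPM in overexpressing cells, against 1.45, 1.52 and 1.30 CPM in control cells. Both rose without overlap (1.05 ± 0.119 and 0.72 ± 0.218), as did the peptidase BMP1 (0.68 ± 0.0803) and SERPINH1 (0.63 ± 0.0369), the collagen chaperone of the endoplasmic reticulum. The prolyl and lysyl hydroxylase genes P4HA1 (−0.23 ± 0.0474), PLOD1 (−0.35 ± 0.0470) and PLOD3 (−0.24 ± 0.0413), the isomerase gene FKBP10 (−0.45 ± 0.0346) and TMEM38B (−0.71 ± 0.0513), an ion channel of the endoplasmic reticulum, fell. The hydroxylase gene P4HA2 rose (0.22 ± 0.0702), and PLOD2 (−0.01 ± 0.0396) and P4HA3 (−0.35 ± 0.216) did not pass.

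Inside the cell, 16 of 28 measured genes of the integrin adhesion complex (31 listed) rose and 4 fell, 57.1% and 14.3%, against 26.8% and 27.7% of all genes, with a median log2 fold change of 0.17. NEDD9, a docking protein of focal adhesions, had 57.8, 57.5 and 55.9 CPM in overexpressing cells, against 36.9, 39.4 and 34.5 CPM in control cells. TGFB1I1, a paxillin-like adaptor, had 28.7, 31.4 and 28.2 CPM in overexpressing cells, against 17.8, 20.9 and 19.3 CPM in control cells. Both rose with no overlap (0.63 ± 0.0547 and 0.60 ± 0.0759), and so did ACTN1 (0.51 ± 0.0493), ZYX (0.48 ± 0.0507), FERMT2 (0.46 ± 0.0442) and PTK2 (0.37 ± 0.0411), coding for alpha-actinin, zyxin, a kindlin and focal adhesion kinase. The kindlin gene of epithelia, FERMT1 (−0.35 ± 0.0447), fell, and VCL (0.05 ± 0.0411) and ILK (−0.01 ± 0.0506) did not pass.

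Of 15 measured genes for other matrix receptors (16 listed), 6 rose and 6 fell, 40.0% in each direction, against 26.8% and 27.7% of all genes. SDC3 and SDC1 code for syndecans, heparan sulphate proteoglycans of the cell surface. SDC3 had 28.3, 30.8 and 26.2 CPM in overexpressing cells, against 9.07, 9.89 and 10.7 CPM in control cells. SDC1 had 95.8, 98.7 and 92.3 CPM in overexpressing cells, against 265, 262 and 271 CPM in control cells. The groups stood apart in both, SDC3 higher (1.52 ± 0.0879) and SDC1 lower (−1.47 ± 0.0388). CD44 (−0.74 ± 0.0455), the hyaluronan receptor, fell, and of the collagen-binding kinases DDR2 (0.14 ± 0.0381) rose and DDR1 (−0.48 ± 0.0464) fell. Other matrix proteins had a row for 29 of 57 listed symbols, which include CCN1 and CCN2, other symbols of the measured CYR61 and CTGF. Of the 29, 13 were higher (44.8%) and 8 lower (27.6%), against 26.8% and 27.7% of all genes. BGN, VTN, EMILIN2 and HAPLN3 had a group under 104 counts, and without them 9 of 25 were higher and 8 lower. The small proteoglycan gene BGN had 117, 80 and 91 counts with overexpression and 4, 0 and 0 in control, and VTN, coding for vitronectin, had 63, 71 and 63 counts with overexpression and 5, 6 and 0 in control. Both were all but undetected in control, so no fold is given. THBS2 (0.89 ± 0.0465) and MATN3 (1.28 ± 0.142) were among those that rose, and SPP1 (−1.08 ± 0.0437), coding for osteopontin, and SMOC1 (−2.01 ± 0.149) among those that fell. The members named beyond the leading pair of each of these 4 lists were chosen after their values were seen. Among endothelial markers 1 of 8, ENG, had a row and was higher (1.86 ± 0.0928); PECAM1, VWF and CDH5 were not analysed here.

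**Figure D5:**
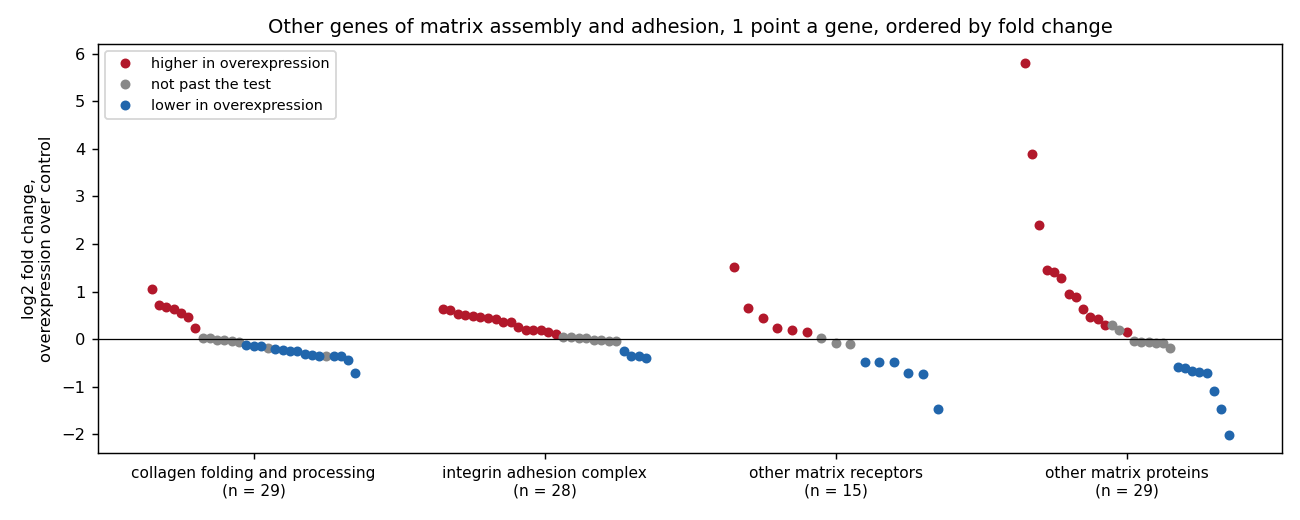
Log2 fold change, overexpression over control, of each measured gene on 4 lists, ordered within a list (red, higher; grey, not past the test; blue, lower). More genes lie below 0 among those of collagen folding and processing (14 lower, 7 higher) and more above 0 in the integrin adhesion complex (16 higher, 4 lower).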

How the data were processed

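RNA-seq libraries of JHH-4 cells, 3 overexpressing hsa-miR-372-3p and 3 controls, were made from column-purified total RNA with a NEBNext Ultra RNA kit, per the labels' protocols, which does not mark strand; samples were grouped by their titles. Per the file headers, the deposited table has a read count and an FPKM value for each library, with the authors' p-value and log2 fold change. The submitters' processing notes name HISAT2 2.0.4, StringTie 2.2.1, DESeq2 1.38.3 and GRCh38 (hg38), without their roles; the read counting method is not stated there or in the labels. Counts as deposited are whole numbers, not normalized. The authors' FPKM values, scaled for length and depth, served only to compare levels between genes. The authors' deposited p-value was not used, and the log2 fold changes in the authors' deposited table differed from those computed here by at most 0.00455 over the members.

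Of 14006 rows, 12396 with an Ensembl ID were tested; 1610 unnamed loci, 2.64 to 3.63% of counts per library, were left out, and 0 per-sample columns lacked a sample. Counts were fitted with edgeR 4.0.16 in R 4.3.3 (TMM, quasi-likelihood F-test, 2 groups, no block; filterByExpr removed 0 genes), with Benjamini-Hochberg adjustment over all 12396 genes, a threshold of 0.05 and 95% confidence intervals. The script was tested on simulated data. Replicates of 1 group were compared pair by pair, and no pair agreed within sampling noise (chi-square over its degrees of freedom, 6.86 to 38.6). The common biological coefficient of variation was 0.0796. Same-numbered libraries of the groups did not deviate together (correlations −0.136, −0.0517 and 0.103), so numbers were not taken as pairs.

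Members, gene lists, roles and tests were chosen with earlier results of these data known. Values in every library are given for the 5 called members of each role with the largest absolute log2 fold change, the member of highest FPKM, members with the 8-base match, and the 2 most changed called genes of each other list; further genes were named after their values were seen, and 1 member and 1 marker gene, kept in all counts, are not reported here. Gene positions, exon overlaps and 3′ UTRs of at least 50 bases come from GENCODE 29 (GRCh38), where all 75 member IDs were found. In ITGA6 the transcript searched had no such 3′ UTR. Some exon overlap was found in 41 members. It is given for the 10 in which 1 other gene covers 5% or more of the exon bases, and for THBS1. Alternatives were RLE and upper quartile factors, DESeq2 1.42.0, a minimum mean of 1 CPM, unnamed loci kept in, the replicate number as a block, and each library left out in turn.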

Additional observations from a re-analysis of the deposited data

How the results depend on the processing

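Of the 60 called members, 50 passed under all 12 alternatives, COL4A3 and LOXL2 passed under the 11 that tested them, and no called member changed direction. The other 8, COL18A1, COL4A3BP, FBN1, ITGA2, ITGB1, LAMB2, NID1 and VCAN, have log2 fold changes within 0.21 of 0 and each lost its call in at least 1 fit with a library left out. DESeq2 and RLE factors kept all 60 calls, upper quartile factors, the unnamed loci and the replicate block 59 each, and a minimum mean of 1 CPM all 58 of the 73 members it left. With the replicate number as a block, 35 members were higher and 24 lower, and over all genes 3381 and 3428; the numbers do not pair the samples, so the block result is given only here. Leaving out 1 library at a time gave 31 to 36 higher and 21 to 24 lower members, 12 to 15 higher and 6 to 7 lower by at least 2-fold, and over all genes 2800 to 3546 higher and 2961 to 3553 lower. In these fits 7 members that had not passed changed sign, and none passed with its sign changed: the log2 fold change ranged from −0.10 to 0.22 for COL11A2, −0.12 to 0.28 for COL15A1, −0.18 to 1.25 for COL1A2, −0.19 to 0.034 for COL24A1, −0.090 to 0.19 for COL4A4, −0.19 to 0.027 for ITGBL1 and −0.13 to 0.057 for LOXL1. COL1A2, COL7A1 and ITGAE passed when 1 library was left out, as given beside their values; the cause was not tested. Upper quartile factors shifted the median of all genes by −0.00785 on the log2 scale, the largest shift of the normalizations tried. Members under about 100 counts in a group, such as COL4A3 and LOXL2, are limited by depth. The second choice of 3′ UTR was added after seeing the data.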
